A study of Homo sapiens with 6 samples.

Results

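The DNA damage checkpoint was followed through 10 genes of its core: the kinase genes ATM, ATR, CHEK1 and CHEK2, and the genes of their sensors and mediators, ATRIP, TOPBP1, MDC1, TP53BP1, RAD17 and RAD9A. They were taken by symbol, as a set of known roles proposed with earlier results of these data in view, from the 58336 genes of the deposited count table, and all 10 were found and passed the filter on low counts. RNA came from A2780, an established human ovarian cancer line grown in culture, after exposure to vehicle (DMSO, replicates A, B and C) or to 6 µM TH588 (replicates A, B and C), with RNA collected at 48 h. TH588 inhibits MTH1, the hydrolase that clears oxidized nucleotides, and arrests cells in mitosis. The replicates are described as biological, but the data hold 1 cell line, 1 dose and 1 time, so they describe this line under this exposure only. In RNA from a whole culture, fewer cells that express a gene and less of its RNA per cell cannot be told apart, and RNA levels say nothing of kinase activity.

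As background, ATM and ATR are related protein kinases at the top of the checkpoint. ATM is called to DNA breaks and signals through CHEK2, while ATR, held on single-stranded DNA by its partner ATRIP, signals through CHEK1 when replication forks stall. RAD17 loads a ring-shaped clamp that contains RAD9A, TOPBP1 docks on that clamp and switches ATR on, and MDC1 and the protein of TP53BP1 gather on the chromatin around breaks and spread the ATM signal.

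Of these 10 genes, 7 fell with TH588, none rose and 3 did not pass the test. CHEK1, ATRIP, MDC1 and TOPBP1 fell by more than 2-fold, CHEK2 by less, and ATR and RAD9A least. The kinase gene ATM, the clamp loader gene RAD17 and the break mediator gene TP53BP1 had slightly higher means with TH588 and did not pass. The test was edgeR's quasi-likelihood test across the 15844 genes that passed the filter, and a gene was called when its p, adjusted by Benjamini-Hochberg over all of them, was under 0.05. Calls were common in this table: 49.6% of all genes tested were called, 25.3% lower and 24.2% higher. Where the mean log2 CPM was 2 or more, which takes in all of these genes but RAD9A, 36.5% of genes were lower and 24.3% higher. A fall of more than 2-fold was rarer, at 4.76% of all genes tested, against 4 of these 10, and a rise of more than 2-fold was found in 9.75%, against none of these 10. The median log2 fold change of the 10 genes was -0.65, beside 0.02 for all genes tested.

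Levels are given as CPM, the counts scaled to a library size corrected by TMM, and fold changes on the log2 scale as TH588 against DMSO. The replicate groups did not overlap for 8 of the 10 genes, with TH588 lower in 6 and higher in ATM and TP53BP1. Over all genes tested, 57.7% had groups that did not overlap, 29.0% with TH588 lower and 28.7% with TH588 higher. With 3 libraries against 3, the exact permutation test of a gene alone (two-sided) cannot give a p below 0.1, so the calls rest on the spread estimated across all genes.

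**Figure D1:**
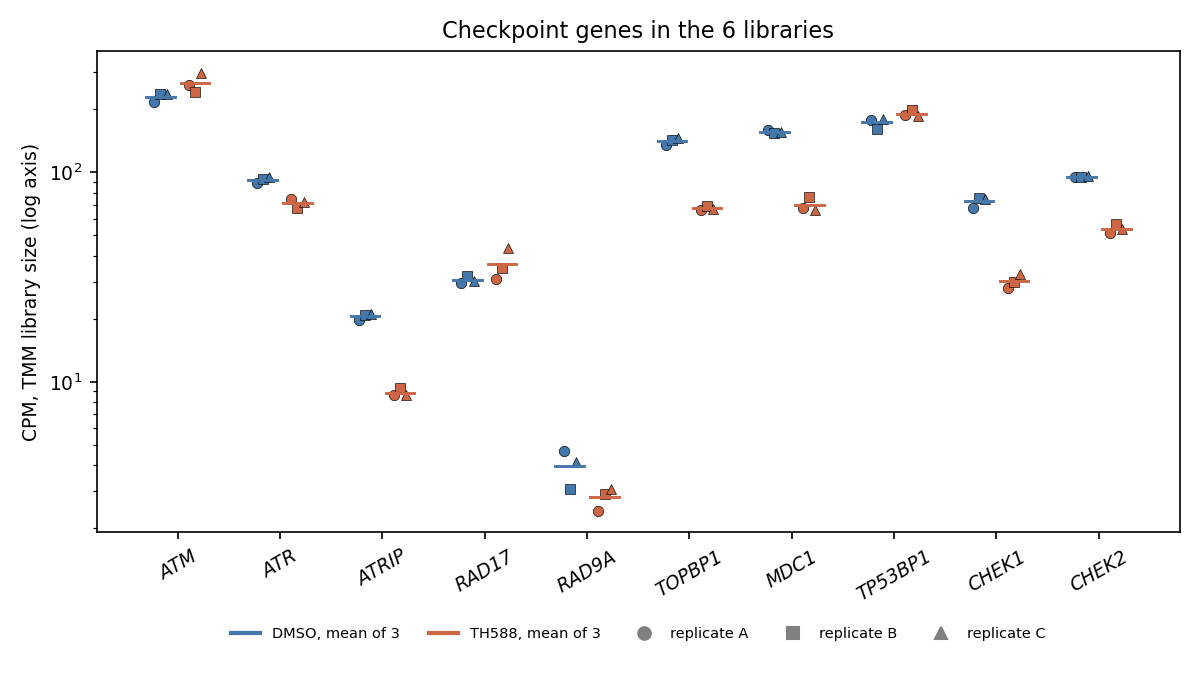
CPM (log axis) of the 10 genes in each library, with DMSO in blue, TH588 in orange, a marker shape per replicate letter and a bar at the mean of 3. The TH588 points lie below all DMSO points for ATR, ATRIP, TOPBP1, MDC1, CHEK1 and CHEK2, and the groups overlap for RAD17 and RAD9A.

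The libraries held between 28537837 and 99074175 counts, the shallowest being TH588 replicate A. The small nucleolar RNA SNORD3A took 21.94% of the counts of that library and between 7.681% and 12.95% in the others. Scaling by library size alone moved the median change over all genes, on the log2 scale, from 0.019 to 0.126, and the share of calls that were higher from 48.9% to 60.4%. Of 6 markers of an epithelial ovarian line, KRT8, CDH1, PAX8 and WT1 were under 1 CPM in every library. The other markers, KRT18 and EPCAM, rose, and the summed level of the 6 was 3.82 to 4.60 CPM with DMSO and 10.8 to 12.1 CPM with TH588. Of 10 markers of leukocytes, endothelium and fibroblasts, 6 were under 1 CPM in every library, among them PTPRC, CD3E, PECAM1 and CDH5. The exception was the collagen gene COL3A1, at 1573 to 1901 CPM with DMSO and 1862 to 2600.0 CPM with TH588, which was called higher (log2 fold change 0.39) although its groups overlapped. Without COL3A1 the other 9 markers summed to 11.2 to 12.4 CPM with DMSO and 10.3 to 11.9 CPM with TH588. Whether the shift in these markers has a part in the values of the checkpoint genes was not tested.

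The promoters of CHEK1, TOPBP1, MDC1 and ATM are shown because they stand for the roles that the results turn on: an effector kinase, the activator of ATR and a break mediator that fell, and the apical kinase that did not pass. Each window runs from 250 bases before to 10 bases after a RefSeq start site, and was read 5′ to 3′ on the strand of the gene from RefSeq on GRCh38.p14. CHEK1 and ATM have more than 1 such window, and only the first listed for each gene is shown. Capitals mark matches, on either strand, to motifs often found in promoters of cell cycle genes. These are the E2F site (TTTGGCGC or TTTCGCGC), the cell cycle homology region or CHR (TTTGAA or TTCGAA) and the CCAAT box (CCAAT). The CHEK1 window is chr11:125625979-125626238 on the plus strand, and that of TOPBP1 is chr3:133661932-133662191 on the minus strand. The MDC1 window is chr6:30717272-30717531 on the minus strand, and that of ATM is chr11:108222817-108223076 on the plus strand.
CHEK1: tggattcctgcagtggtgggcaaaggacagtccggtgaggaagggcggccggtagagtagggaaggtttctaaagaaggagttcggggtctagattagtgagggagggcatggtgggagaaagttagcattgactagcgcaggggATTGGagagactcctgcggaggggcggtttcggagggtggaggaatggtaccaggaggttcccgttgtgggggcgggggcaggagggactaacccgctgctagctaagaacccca
TOPBP1: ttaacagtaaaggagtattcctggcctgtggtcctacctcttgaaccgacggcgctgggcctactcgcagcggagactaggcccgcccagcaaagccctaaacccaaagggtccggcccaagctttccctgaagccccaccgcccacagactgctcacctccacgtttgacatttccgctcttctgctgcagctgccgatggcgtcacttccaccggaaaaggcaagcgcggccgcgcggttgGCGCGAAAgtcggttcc
MDC1: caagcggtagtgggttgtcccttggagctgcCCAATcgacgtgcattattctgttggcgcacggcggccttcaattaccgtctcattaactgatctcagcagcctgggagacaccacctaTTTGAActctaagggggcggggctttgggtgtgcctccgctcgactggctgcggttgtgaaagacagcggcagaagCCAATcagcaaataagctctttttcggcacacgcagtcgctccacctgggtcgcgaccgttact
ATM: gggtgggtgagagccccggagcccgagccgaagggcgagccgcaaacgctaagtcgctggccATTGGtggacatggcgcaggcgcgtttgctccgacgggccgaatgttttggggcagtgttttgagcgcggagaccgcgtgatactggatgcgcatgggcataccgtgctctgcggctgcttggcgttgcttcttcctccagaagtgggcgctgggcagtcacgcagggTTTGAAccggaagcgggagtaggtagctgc

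All 10 genes had at least 1 RefSeq window, 16 windows in all. The E2F letters occurred in 1 of the 10 genes, TOPBP1, as GCGCGAAA across the start site, and in 1.02% of the 35116 windows of the RefSeq table. The CHR letters occurred in ATM, 20 bases before the start site, in MDC1, 130 bases before it, and in RAD17, and in 14.9% of all windows. The CCAAT box occurred in 8 of the 10 genes, all but ATR and TOPBP1, and in 32.7% of all windows. Several of the 10 genes have more than 1 window, which gives them more chances of a match than a window alone. Genes that fell and genes that did not pass both held the CHR and CCAAT letters. A match is a description of the letters and not of a bound factor.

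The apical kinases gave different calls. ATR lies on chromosome 3 (chr3:142449235-142578826, minus strand). In the order of the replicate letters, here and in what follows, it stood at 88.8, 93.4 and 94.7 CPM with DMSO and at 74.7, 67.7 and 72.2 CPM after TH588. All TH588 values were below all DMSO values, with a gap between the groups larger than the range within either. The mean was 92.3 ± 3.08 CPM with DMSO against 71.5 ± 3.55 CPM with TH588 (SD, n = 3), and the log2 fold change was -0.37 (SE 0.08, edgeR adjusted p = 0.00166). A processed pseudogene, EIF2AK1P1, shares 16.4% of the exon bases of ATR on the opposite strand and had 0 counts in every library.

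ATM lies on chromosome 11 (chr11:108222484-108369102, plus strand). Its values were 216, 237 and 237 CPM with DMSO and 262, 242 and 299 CPM with TH588. The TH588 libraries were all above the DMSO libraries, but replicate B only narrowly. The DMSO mean was 230.2 ± 12.0 CPM and the TH588 mean 268 ± 29.1 CPM (SD, n = 3). The log2 fold change of 0.22 had a 95% confidence interval from 0.02 to 0.42 and did not pass (edgeR adjusted p = 0.0657). That call turned on single libraries and settings: without TH588 replicate A the log2 fold change was 0.25 (edgeR adjusted p = 0.0443) and without TH588 replicate B it was 0.29 (edgeR adjusted p = 0.0211). NPAT, an activator of histone genes that is read from the opposite strand beside ATM, fell by 0.52 on the log2 scale (SE 0.07, edgeR adjusted p = 8.56e-05). ATM shares 1.50% of its exon bases with other genes, NPAT among them.

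Within each library, ATR was set against ATM as the log2 ratio of counts per exon length, which does not depend on how the libraries were scaled. The ratio was -0.34, -0.40 and -0.38 in the DMSO replicates, and -0.87, -0.90 and -1.11 in the TH588 replicates. Every TH588 library thus had less ATR for its ATM than every DMSO library, with a difference in means of -0.58 (exact two-sided permutation p = 0.1, the smallest these groups allow, and 0.1 after Benjamini-Hochberg adjustment over 4 ratios).

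The genes of the partner and the activator of ATR both fell, by more than ATR in the fit. ATRIP, which binds ATR and brings it to coated single-stranded DNA, lies on chromosome 3 (chr3:48446710-48467645, plus strand). Its values were 19.7, 20.9 and 21.1 CPM with DMSO and 8.67, 9.34 and 8.65 CPM with TH588. The groups were far apart, and the fit put the TH588 level at 43.3% of the DMSO level, a log2 fold change of -1.21 (SE 0.10, edgeR adjusted p = 1.44e-06). The exonuclease gene TREX1 lies wholly within ATRIP on the same strand, takes up 30.4% of its exon bases and had 0 counts in every library. Of 1131 genes whose exons were all shared, at least in part with genes of the same strand, 1033 had 0 counts, so the 0 for TREX1 does not show that it was silent.

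The log2 ratio of ATRIP over ATR was -0.97, -0.96 and -0.96 in the DMSO replicates, and -1.91, -1.66 and -1.86 in the TH588 replicates. The DMSO values were almost alike and the TH588 values all lower, with a difference of -0.84 (exact two-sided permutation p = 0.1, the smallest possible, and 0.1 after adjustment over 4 ratios).

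TOPBP1, the scaffold that activates ATR, lies on chromosome 3 (chr3:133598175-133662380, minus strand), and its promoter window was the only window among the 10 genes with the E2F letters. It stood at 135, 143 and 147 CPM with DMSO and at 66.0, 69.1 and 66.8 CPM with TH588. The TH588 libraries lay close together and far below the DMSO libraries. The mean was 141 ± 6.11 CPM with DMSO against 67.3 ± 1.60 CPM with TH588 (SD, n = 3), and the log2 fold change was -1.07, with a 95% confidence interval from -1.24 to -0.91 that lies below that of ATR, from -0.54 to -0.20 (SE 0.08, edgeR adjusted p = 4.22e-07).

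The genes of the clamp and its loader had the largest standard errors of the 10 in the fit. RAD17, the loader subunit, lies on chromosome 5 (chr5:69369293-69414801, plus strand). It stood at 29.6, 32.1 and 30.4 CPM with DMSO and at 31.1, 35.1 and 43.7 CPM with TH588. TH588 replicate A lay inside the DMSO range and replicate C stood well above it. The log2 fold change of 0.26 had a 95% confidence interval from 0.01 to 0.51 (edgeR adjusted p = 0.0772). It was 0.13 without TH588 replicate C, and 0.37, a value that passed, without TH588 replicate A (edgeR adjusted p = 0.00800).

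RAD9A, a subunit of the clamp, lies on chromosome 11 (chr11:67317871-67398410, plus strand). It had between 65 and 386 counts per library, the fewest of the 10 genes. Its values were 4.67, 3.07 and 4.12 CPM with DMSO and 2.43, 2.92 and 3.07 CPM with TH588. DMSO replicate B met TH588 replicate C, so the groups overlapped. The log2 fold change was -0.48 (SE 0.18, edgeR adjusted p = 0.0444), just past the threshold. Leaving out any library other than DMSO replicate B lost the call, with log2 fold changes between -0.63 and -0.32 over the 6 libraries left out, and its adjusted p ran from 0.0131 to 0.218 over all 15 alternatives. The log2 ratio of TOPBP1 over RAD9A was 4.04, 4.73 and 4.34 in the DMSO replicates and 3.95, 3.75 and 3.63 in the TH588 replicates. The groups did not overlap, though DMSO replicate A and TH588 replicate A were close, and the difference was -0.59 (exact two-sided permutation p = 0.1, also 0.1 after adjustment over 4 ratios).

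The effector kinases both fell. CHEK1, which acts below ATR, lies on chromosome 11 (chr11:125625136-125676255, plus strand). It stood at 68.0, 75.6 and 74.7 CPM with DMSO and at 28.2, 30.1 and 32.7 CPM with TH588. The groups were far apart, and the fit put the TH588 level at 41.8% of the DMSO level. Its log2 fold change of -1.26 (SE 0.09, edgeR adjusted p = 3.70e-07) was the lowest of the 10, and 2.76% of all genes tested had a lower one.

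CHEK2, which acts below ATM, lies on chromosome 22 (chr22:28687743-28742422, minus strand). Its values were 94.5, 94.6 and 95.6 CPM with DMSO and 51.2, 56.4 and 53.4 CPM with TH588. The DMSO libraries were nearly equal and all TH588 libraries were lower. CHEK2 fell by 0.82 on the log2 scale (SE 0.08, edgeR adjusted p = 3.10e-06). CHEK2 has many pseudogene copies, and the named copies CHEK2P1 to CHEK2P7 had at most 4 counts in any library, so few reads were counted to them. How reads that match both CHEK2 and a copy were counted is not given in the sources used here.

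The log2 ratio of CHEK1 over CHEK2 was -1.14, -0.99 and -1.02 in the DMSO replicates, and -1.52, -1.57 and -1.37 in the TH588 replicates. CHEK1 was thus lower for its CHEK2 in every TH588 library, with a difference of -0.44 (exact two-sided permutation p = 0.1, again the smallest possible, and 0.1 after adjustment over 4 ratios).

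The break mediators also gave different calls, and their confidence intervals did not overlap. MDC1, the scaffold that binds the phosphorylated histone variant H2AX, lies on chromosome 6 (chr6:30699807-30717889, minus strand). It stood at 159, 155 and 156 CPM with DMSO and at 67.7, 76.1 and 66.3 CPM with TH588. The DMSO libraries agreed closely and all TH588 libraries were far lower, at a mean of 44.7% of DMSO. MDC1 thus had a log2 fold change of -1.16, within an interval of -1.34 to -0.98 (SE 0.08, edgeR adjusted p = 3.92e-07).

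TP53BP1, whose protein steers the choice of break repair, lies on chromosome 15 (chr15:43403061-43510728, minus strand). Its values were 179, 162 and 179 CPM with DMSO and 189, 198 and 185 CPM with TH588. The TH588 libraries were all above the DMSO libraries by a margin smaller than the range within DMSO. The log2 fold change of 0.14 had a 95% confidence interval from -0.03 to 0.31 and did not pass (edgeR adjusted p = 0.167). It did not pass under any of the 15 alternatives, with adjusted p from 0.0804 to 0.488. Its log2 fold change was 0.09 without DMSO replicate B and 0.24 with library size only. TUBGCP4, a gene of the gamma-tubulin ring, shares 28.7% of the exon bases of TP53BP1 from the opposite strand and fell by 0.62 on the log2 scale (SE 0.09, edgeR adjusted p = 8.86e-05). All 709 genes whose exons lay wholly under genes of the opposite strand had 0 counts, so counts in the shared stretch appear to have gone to neither gene.

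**Figure D2:**
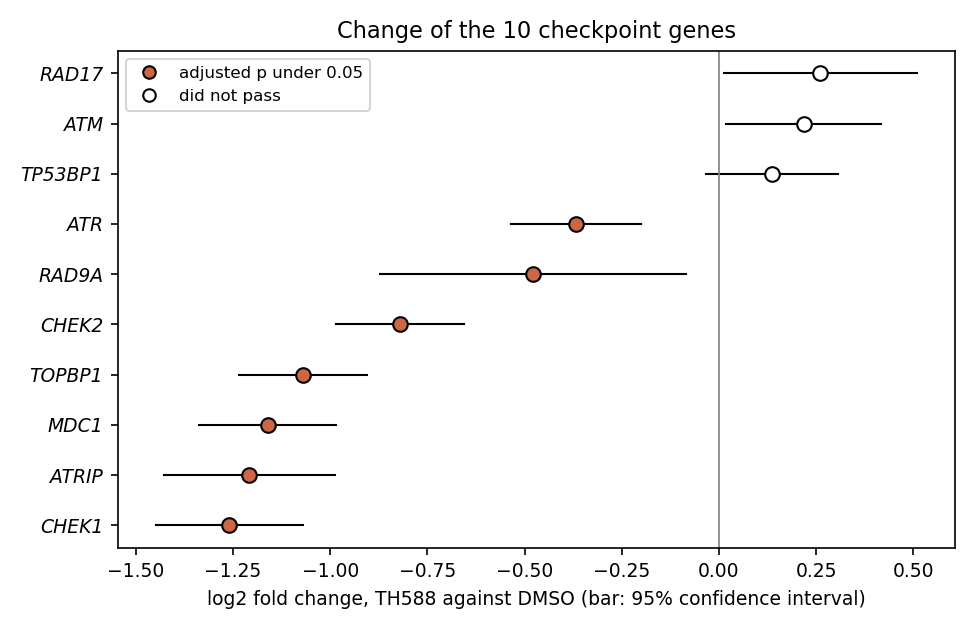
Log2 fold change of the 10 genes, TH588 against DMSO, with 95% confidence intervals as bars, in orange for an adjusted p under 0.05 and open otherwise. The genes run from CHEK1 at -1.26 to RAD17 at 0.26, and the intervals of CHEK1, ATRIP, MDC1, TOPBP1 and CHEK2 lie below those of ATM, RAD17 and TP53BP1 without overlap.

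Levels of different genes were compared per length, as CPM per kilobase of merged exon. With DMSO, CHEK2 was the most abundant at 22.9 ± 0.139, followed by MDC1 at 19.4 ± 0.268 and TOPBP1 at 19.3 ± 0.836 (SD, n = 3 each). The ranges of MDC1 and TOPBP1 overlapped. TP53BP1 followed at 13.3, CHEK1 at 11.1, ATM at 9.60, ATR at 7.39 and RAD17 at 7.38, and the ranges of the last pair overlapped. ATRIP stood at 3.79 and RAD9A lowest at 0.948, a 24.2-fold range across the set. With DMSO, then, an effector kinase gene and both large scaffold genes had higher levels per length than the apical kinase genes.

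With TH588 the order per length of merged exon changed at the top. TP53BP1 was now highest at 14.7 ± 0.515, followed by CHEK2 at 13.0 ± 0.637 and ATM at 11.2 ± 1.21 (SD, n = 3 each). The ranges of CHEK2 and ATM overlapped, and those of TP53BP1 and CHEK2 did not, though they did with library size only. TOPBP1 stood at 9.21, RAD17 at 8.81 and MDC1 at 8.69, and the ranges of these neighbours overlapped. ATR at 5.72 was now above CHEK1 at 4.62, the reverse of their order with DMSO. ATRIP at 1.64 and RAD9A at 0.673 stayed lowest. When the length of the canonical transcript was used instead, CHEK2 stood at 51.5 with DMSO and 29.1 with TH588 and was first in both groups, since that transcript has 1844 bases where the merged exons have 4142. With that length and DMSO, TOPBP1 at 24.5 lay above MDC1 at 22.5 without overlap, and ATM moved up to 17.8, beside CHEK1 at 17.6 and TP53BP1 at 16.7, and the ranges of ATM and CHEK1, and of CHEK1 and TP53BP1, overlapped. Over exon bases not shared with another gene, TP53BP1 stood at 18.7 with DMSO, and its range overlapped that of TOPBP1 at 19.4. With TH588 and those bases TP53BP1 was highest at 20.6. Which gene was highest with TH588, and the order per length in the middle of the set, thus depended on the length used.

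**Figure D3:**
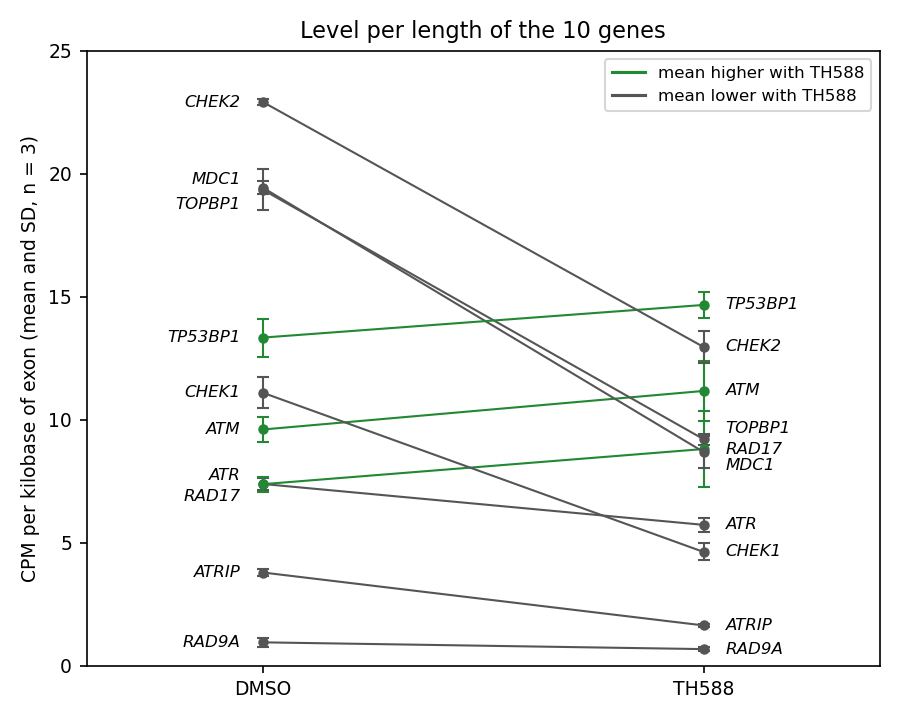
Mean level per length (CPM per kilobase of merged exon, bars are SD, n = 3) of the 10 genes with DMSO and TH588, joined by a line, in green where the mean was higher with TH588. CHEK2, MDC1 and TOPBP1 lead with DMSO, at 22.9, 19.4 and 19.3, and TP53BP1 leads with TH588, at 14.7.

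The other genes of the pathway were counted in lists, each beside the background shares above and with no test of the list. Of 15 other genes of the ATR arm, 10 fell, 1 rose and 4 did not pass, and their median was -1.18 on the log2 scale. The largest falls were those of CLSPN (-2.21), the adaptor that brings CHEK1 to ATR, and of the clamp loader subunits RFC2 (-1.36) and RFC4 (-1.35). CLSPN stood at 171, 148 and 158 CPM with DMSO and at 31.9, 37.4 and 33.6 CPM with TH588, groups far apart (SE 0.09, edgeR adjusted p = 1.50e-08). The other small loader subunits fell as well, RFC3 by 1.24 and RFC5 by 1.34 on the log2 scale, while RAD17, which takes the place of the large subunit beside them, did not pass. Of the clamp, the subunit gene RAD1 fell by 1.18, and HUS1 (-0.02), RAD9B (-0.28) and RHNO1 (-0.19), a partner of the clamp, did not pass. Of the coat of single-stranded DNA, RPA2 fell by 0.95 and RPA1 by 0.55, and RPA3 (-0.25) did not pass. The fork genes TIMELESS (-1.27) and TIPIN (-1.32) fell, and a pseudogene shares 21.0% of the exon bases of TIPIN. ETAA1, which activates ATR apart from TOPBP1, was the gene that rose, from 13.0 ± 1.41 CPM to 16.6 ± 1.74 CPM (SD, n = 3). On the log2 scale its rise was 0.35 (edgeR adjusted p = 0.0312), and it no longer passed without DMSO replicate A, TH588 replicate A or TH588 replicate C.

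Of 15 other genes of the ATM arm, 7 fell, 1 rose and 7 did not pass, and their median was -0.24 on the log2 scale. The largest fall was that of H2AX (-1.67), the histone variant that ATM phosphorylates and MDC1 reads. Its values were 134, 106 and 116 CPM with DMSO and 33.9, 41.6 and 35.7 CPM with TH588, with no overlap (SE 0.11, edgeR adjusted p = 2.41e-07). Of the break sensor complex that recruits ATM, NBN (-0.93) and MRE11 (-0.69) fell and RAD50 (-0.17) did not pass, although a read-through gene shares 79.7% of the exon bases of RAD50. RIF1, which acts with the protein of TP53BP1, fell by 0.81, beside TP53BP1 itself, which did not pass. BRCC3 (-0.59), PAXIP1 (-0.49) and the ubiquitin ligase gene RNF168 (-0.28) fell too. The gene that rose was BABAM1 (0.58), a subunit of the complex that contains BRCC3, and another gene of the same strand shares 32.6% of its exon bases. The ubiquitin ligase gene RNF8 (-0.15), the acetyltransferase gene KAT5 (0.08), UIMC1 (0.02), ABRAXAS1 (0.29), BABAM2 (0.20) and MAD2L2 (-0.24) did not pass. KAT5 shares 38.6% of its exon bases, and ABRAXAS1 25.15%, with a gene of the opposite strand.

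The kinases related to ATM and ATR, with the chaperones that assemble this kinase family, made a list of 9, of which 6 fell, none rose and 3 did not pass (median -0.53). PRKDC, the related kinase of break joining, fell by 0.85 on the log2 scale. SMG1 (-0.17), MTOR (-0.14) and TRRAP (-0.08), the other relatives, did not pass, as ATM did not. All chaperone genes of the list fell, from TELO2 (-1.04) and TTI1 (-0.95) through RUVBL1 (-0.80) and RUVBL2 (-0.53) to TTI2 (-0.42). TTI2 shares 25.4% of its exon bases with other genes.

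Of 12 genes that act below the effector kinases, 8 fell and 4 rose. Those that rose were CDKN1A (4.71), the inhibitor of cyclin-dependent kinases, MDM2 (2.00), the phosphatase gene PPM1D (1.15), which switches the checkpoint kinases off, and MDM4 (0.23). The largest falls were those of CDC25A (-1.89), the phosphatase that CHEK1 marks for destruction, CDK1 (-1.86) and PKMYT1 (-1.26), an inhibitory kinase of CDK1. PKMYT1 shares 31.6% of its exon bases with genes of the opposite strand. PLK1 (-1.02), CDK2 (-0.86), WEE1 (-0.80), CDC25C (-0.43) and CDC25B (-0.25) fell as well. The median of the list was -0.61. Nearest the threshold were CDC25B (edgeR adjusted p = 0.0472) and MDM4 (edgeR adjusted p = 0.0251). Over the 15 alternatives the number of these genes that fell ran from 6 to 8 and the number that rose from 3 to 4.

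All 14 S phase genes listed fell, between -2.06 (CCNE2) and -0.70 (TYMS). CCNE2 shares 37.1% of its exon bases, and TYMS 26.2%, with genes of the opposite strand. The median of the 14 genes was -1.25, beside -0.65 for the 10 checkpoint genes, of which 7 fell. The part that the share of cells in S phase has in the falls of the checkpoint genes was not tested, and a lower share of such cells and less RNA per cell cannot be told apart here.

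**Figure D4:**
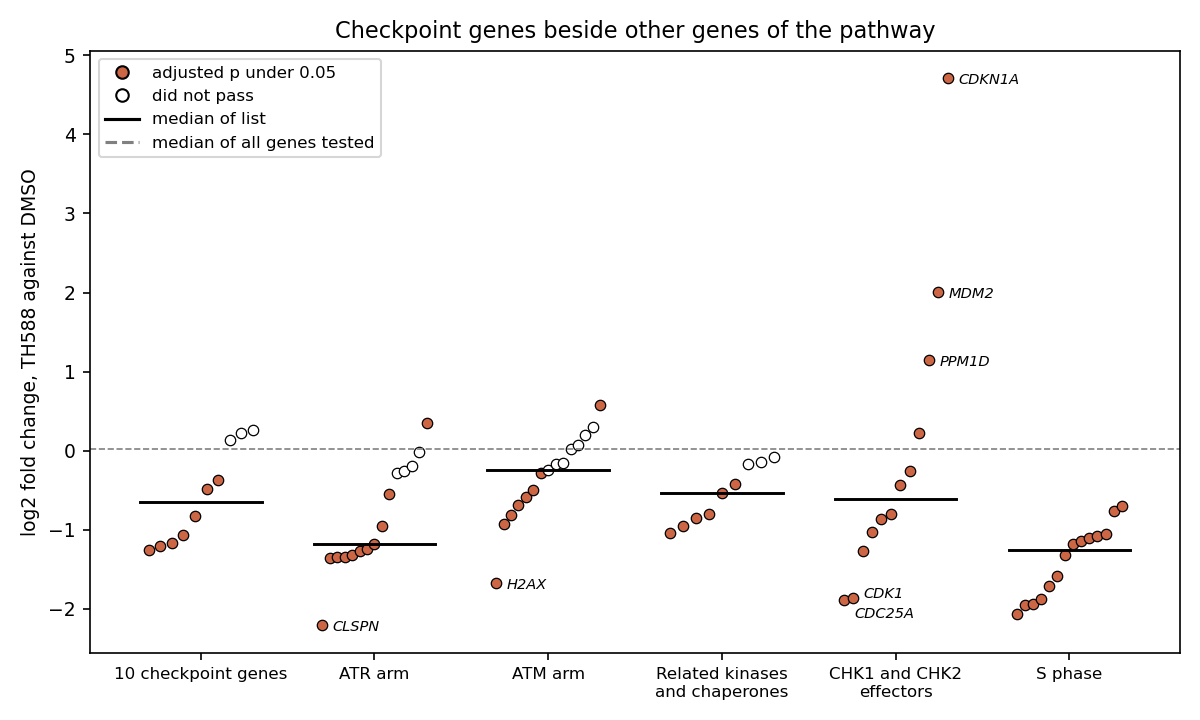
Log2 fold change, TH588 against DMSO, of every gene in 6 lists (orange points passed an adjusted p of 0.05, open points did not), with a bar at the median of each list and a dashed line at the median of all genes tested. The medians are -0.65 for the 10 checkpoint genes, -1.18 for the ATR arm, -0.24 for the ATM arm, -0.53 for related kinases and chaperones, -0.61 for effectors and -1.25 for S phase.

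The falls of ATR, ATRIP, CHEK1, CHEK2, TOPBP1 and MDC1 passed under all 15 alternatives run, which changed the normalization, the filter, the test, the threshold, the replicate term or the libraries. Over these, the log2 fold change of CHEK1 stayed between -1.30 and -1.15, that of ATRIP between -1.25 and -1.10 and that of MDC1 between -1.23 and -1.05. TOPBP1 stayed between -1.09 and -0.97, CHEK2 between -0.86 and -0.71 and ATR between -0.39 and -0.27. The calls that moved were those of ATM, RAD17 and RAD9A.

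**Figure D5:**
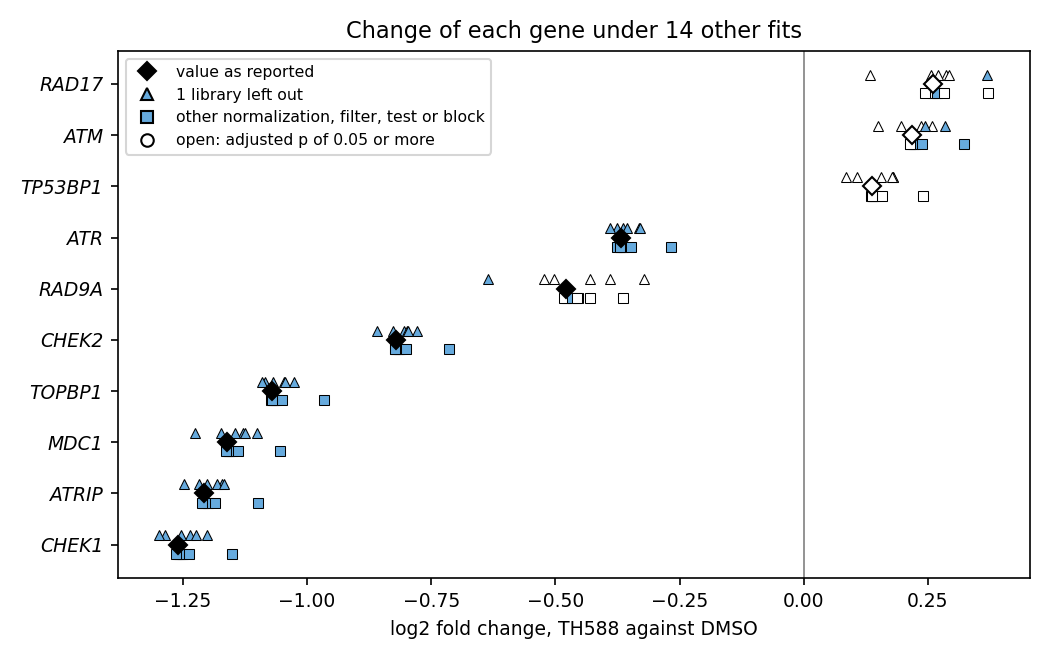
Log2 fold change of each gene as reported (diamonds), with 1 library left out (triangles) and under another normalization, filter, test or a replicate block (squares), filled where the adjusted p was under 0.05. The points of ATR, CHEK2, TOPBP1, MDC1, ATRIP and CHEK1 are all filled and those of TP53BP1 all open, while RAD17, ATM and RAD9A have both.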

How the data were processed

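RNA from 3 DMSO and 3 TH588 cultures of A2780 was sequenced from poly(A) libraries made with a kit that does not mark strand. The authors aligned reads to GRCh38 with TopHat, counted them per gene with featureCounts 1.4.6 and deposited raw counts without normalization. UCSC gene models are named in their methods, but genes in the table have Ensembl identifiers, of which 57754 of 58336 were matched to a symbol. Coordinates are those of the table.

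Counts were tested in R 4.3.3 with edgeR 4.0.16: TMM scaling, the default filter on low counts, the quasi-likelihood test and Benjamini-Hochberg adjustment over 15844 genes. The standard error (SE) is the log2 fold change over the square root of F. The 10 genes and the gene lists (ATR arm, ATM arm, related kinases and chaperones, effectors, S phase, markers) were chosen with earlier results of these data known. The counts and median of the effectors leave out 1 gene of that list, which is not reported here. All 10 genes were named, and in each list the 3 largest rises and falls among called genes (adjusted p under 0.05) whose groups did not overlap and whose mean log2 CPM was 2 or more, those that did not pass, and others of the list with their values. Genes that share exons with the 10 were named for that.

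In counts simulated for this comparison, 199 of 15543 genes had a log2 fold change of 1, up or down. Of these, 154 (77.4%) were recovered, among them 138 of 139 whose mean log2 CPM was 2 or more. There were 10 false calls (6.1%). In the data 49.6% of genes were called, a far larger share, so these rates need not hold there. Replicates differed beyond sampling noise, so each library counted once. Alternatives were DESeq2 1.42.0 and its size factors, limma 3.58.1 voom, library size only, removal of the 10 most abundant genes, other filters and a stricter threshold, each library left out, a replicate term, other lengths, and a pseudocount of 0.5 reads in the ratios. A level per length over unshared exon bases was chosen after seeing the data.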

Additional observations from a re-analysis of the deposited data

How the results depend on the processing

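With library size only, ATM passed at a log2 fold change of 0.32 (adjusted p = 0.0317), with no filter at 0.23 (0.0448) and with at least 10 counts in every library at 0.24 (0.0423), all from edgeR. With each library left out in turn it ran from 0.15 to 0.29. RAD17 passed with no filter at 0.27 (adjusted p = 0.0362 from edgeR) and ran from 0.13 to 0.37 with a library left out. RAD9A did not pass with library size only (-0.36), DESeq2 (-0.48), limma-voom (-0.43), at least 10 counts in every library (-0.45) or a threshold of 0.01 (-0.48), and ran from -0.63 to -0.32 with a library left out. The number of the 10 genes that rose was 1 with library size only, 2 with no filter, 1 with at least 10 counts in every library, and 0 to 2 with a library left out. In the ATR arm, 0 genes rose at a threshold of 0.01 and 0 to 1 with a library left out. In the ATM arm, 3 rose with library size only, 2 with at least 10 counts in every library and 1 to 2 with a library left out. The highest over the lowest level per length with TH588 was 28.9-fold over unshared exon bases, against 21.8-fold. Only the length used differed there. For TP53BP1, the highest, it went from 12991 to 9259 bases, and for RAD9A, the lowest, from 4169 to 3941. The cause of the other moves was not tested. No direction was reversed.

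Replicate letters were shared between the groups, but same-letter libraries did not deviate together (correlations of -0.07, -0.08 and 0 across genes). The letters were therefore not used as pairs in the main test. With 3 libraries a group, these correlations cannot exclude a weak pairing. With a replicate block, 7195 genes were called, 7129 of them shared with the 7852 called without it, RAD9A no longer passed (-0.46, adjusted p = 0.0747 from edgeR) and no other call among the 10 genes changed. The ratios had an exact permutation p of 0.25 within letters, the smallest that 3 differences allow. RAD9A had the fewest counts of the 10 genes, from 65 in TH588 replicate A to 386 in DMSO replicate C. Among the effectors, 6 to 8 genes fell and 3 to 4 rose with a library left out. With 3 libraries a group, no library could be tested as an outlier.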

Other observations

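Several genes that share exons with the checkpoint genes gave values of their own. STT3A, an oligosaccharyl transferase gene that shares 1.22% of the exon bases of CHEK1, fell by 0.80 on the log2 scale (SE 0.11, edgeR adjusted p = 7.42e-05). AK6, a nucleotide kinase gene that shares 5.05% of those of RAD17 from the opposite strand, fell by 0.73 (SE 0.11, edgeR adjusted p = 0.000123). TAF9, which shares 9.14% of the exon bases of RAD17, had a log2 fold change of 0.00 and did not pass. HSCB beside CHEK2 (0.15), PPP1CA beside RAD9A (-0.19) and C11orf65 beside ATM (0.73) did not pass either. The antisense gene of MDC1, MDC1-AS1, had 0 counts in every library, and 37 of its exon bases lie outside MDC1. The pseudogenes RAD17P1 and RAD17P2 had at most 12 counts in any library.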
